A study of Mus musculus with 18 samples.

Results

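Hedgehog-driven tumor cells were compared with the unmarked cells of normal muscle on 7 of the 18 mouse expression arrays of the series. The 4 tumor arrays held Tom+/Pecam1- cells, that is, cells sorted for the red fluorescent reporter tdTomato and against the endothelial and leukocyte surface protein Pecam1. The 3 muscle arrays held Tom- cells, sorted only for lack of the reporter, so that endothelial cells and leukocytes without Cre activity could remain in them. All mice carried aP2-Cre/+ and tdTomato/+, in which the promoter of Fabp4 (aP2), a fatty acid carrier of adipocytes and some endothelial cells, drives a Cre recombinase that turns on the reporter. The tumor mice also carried SmoM2/+, a Cre-dependent active form of the hedgehog transducer Smoothened. The muscle was sternocleidomastoid, a neck muscle, taken at postnatal day 21 from mice of the strain labelled B6;SJL. The tumors were taken at day 48 (repeats 1 to 3) and day 38 (repeat 4) from mice labelled BJ;SJL;B6.129. The labels give no sex and do not say whether animals were pooled. Genotype, tissue, age and strain all differ between the groups and cannot be told apart here. The female-cell RNA Xist and the spread of the repeat means in the deposited values also split by tissue, as given below.

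Hedgehog ligands bind the receptor Ptch1, which otherwise holds the membrane protein Smo inactive in the primary cilium. Active Smo lets the transcription factors Gli2 and Gli3 act as activators, and these raise Gli1, Ptch1 and Hhip, so that the pathway induces a factor that amplifies it and receptors that damp it. Skeletal muscle forms from progenitors that express Pax7 and Myf5, commit with Myod1, differentiate with Myog and fuse into fibers that switch from embryonic and perinatal to adult myosins. Rhabdomyosarcoma is a tumor whose cells express part of this muscle programme.

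All levels are log2 intensities minus the median of all probe sets on that array, so that 0 is the middle of an array and a difference of 1 is 2-fold. Array medians were 5.041 to 5.105 in muscle and 5.41 to 5.438 in tumors before this step, and without it the difference of the median gene was 0.34 in place of 0.01. Every difference is therefore relative to the bulk of the genes on the array. Arrays of 1 group correlated at r = 0.978 to 0.99 (tumor) and 0.971 to 0.976 (muscle) over the genes tested (genes are no replicates). In the deposited values the mean over the 3 tumor populations of a repeat was the same for all repeats at every probe set (largest range 7.67e-05). Variation shared by the cells of 1 tumor is thus absent, and p-values tend to be too small. The repeat means of the muscle arrays were not equal (median range 0.248 over probe sets), so the deposited values of the tissues also differ in this respect. The files hold no detection calls, so a level below 0 may be background and a difference from such a level may understate the change.

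Of 16011 genes tested, 7545 (47.1%) passed an adjusted p of 0.05 with limma and Benjamini-Hochberg adjustment. In the tumor cells 3866 (24.1%) were higher and 3679 (23%) lower, and with a difference of at least 2-fold 891 and 787. This split follows the centring: 84.2% of the calls were higher without it and 39.9% with centring on the tested genes, against 51.2% here. A list in which about 47.1% of the members passed, or 24.1% as higher or 23% as lower, therefore does not stand out by its count. All tests below are two-sided limma tests adjusted over the 16011 genes, with n = 4 tumor and n = 3 muscle arrays and errors given as SE.

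The 12 genes furthest above muscle were led by Hhip, the decoy receptor of hedgehog ligands, at 5.33, 5.19, 4.88 and 5.90 in tumor repeats 1 to 4 and -0.04, -0.87 and -0.49 in muscle repeats 1 to 3. Every tumor array lay in the upper part of its values and every muscle array below its median. The difference was 5.79 ± 0.63 (55.4-fold, adjusted p = 1.3e-06). Smoc1, a secreted modulator of BMP signaling, lay at 4.23 to 4.94 against -0.56 to -0.21 (5.04 ± 0.20), and Ltbp2, a microfibril protein of the matrix, at 5.02 to 5.33 against 0.08 to 0.19 (4.99 ± 0.17). The protease Adamdec1 (4.56), the secreted Wnt inhibitor Wif1 (4.36), Tmem171 (4.29), the protocadherin Pcdhb10 (4.24), the neural adhesion molecule Cntn1 (4.16), the anion exchanger Slc26a7 (4.12), the protease inhibitor Fetub (3.95) and the slow-muscle troponin Tnnc1 (3.86) followed. Car3, the carbonic anhydrase of slow muscle and adipocytes, also ranked here (3.81 ± 0.80), but its muscle levels spread from -0.93 in repeat 2 to 4.19 in repeat 1.

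The 12 genes furthest below muscle fell into several kinds. Xist, the RNA that silences 1 X chromosome in female cells, stood at 5.76, 5.62 and 5.63 in muscle and at -0.11, -0.23, -0.10 and 0.37 in the tumor cells (-5.69 ± 0.14, adjusted p = 3.29e-14). It was near 0 in the other tumor populations (-0.08 and -0.14 on average) and at 5.17 in the marked muscle cells, so it separated the tissues and not the sorted populations. Y-linked genes were above the array median in both groups: Eif2s3y at 2.27 to 2.55 in muscle and 1.12 to 1.87 in tumor cells (-0.77 ± 0.18), Uty at 1.22 to 1.43 and 0.70 to 1.10 (-0.49 ± 0.15), and Kdm5d at 1.19 to 1.36 and 1.38 to 1.72 (0.31 ± 0.11). The call of Kdm5d was lost with quantile normalization and that of Uty without centring. The part of the animals' sex in the other differences was not tested. Apart from Xist the list held the tendon and cornea proteoglycan Kera (-5.36), the glial connexin Gjc3 (-4.90), Chodl (-4.66), the fibroblast surface peptidase Dpp4 (-4.25), the mast cell protease Mcpt4 (-4.23), the calcium buffer of fast fibers Pvalb (-4.23) and the prohormone convertase Pcsk1 (-4.11).

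The remaining 4, Bpifa2, Smr3a, Pip and Cst10, are secretory genes of salivary and related glands, and they were high in only part of the muscle arrays. Bpifa2 stood at 7.64, 5.86 and -0.96 in muscle repeats 1 to 3 and at -1.35 to -1.04 in the tumor cells (-5.42 ± 1.58, adjusted p = 0.00958). Its call was lost without muscle repeat 1 or 2. Smr3a stood at 6.66, 3.33 and -1.56 in the muscle repeats and Pip at 6.48, 1.16 and -0.83. In the list of gland genes 13 were tested. Of these 7 were lower in the tumor cells, led by Amy1, Muc19, Lpo and Smr3a, 2 were higher (Krt8 and Cldn3) and 4 were not called (median -1.69). Among these named members only Smr3a is in the 252 genes counted in the closing sections. Of 19 gland genes measured, 10 exceeded a level of 1 in muscle repeat 1, 4 in repeat 2 and 1 in repeat 3, against 1 or 2 in each tumor array. Gland genes thus varied among the muscle arrays, and their part in other differences was not tested directly. With muscle repeats 1 and 2 left out, 2339 genes were called higher and 2621 lower, with 1 muscle array assumed to vary like the other groups.

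**Figure D1:**
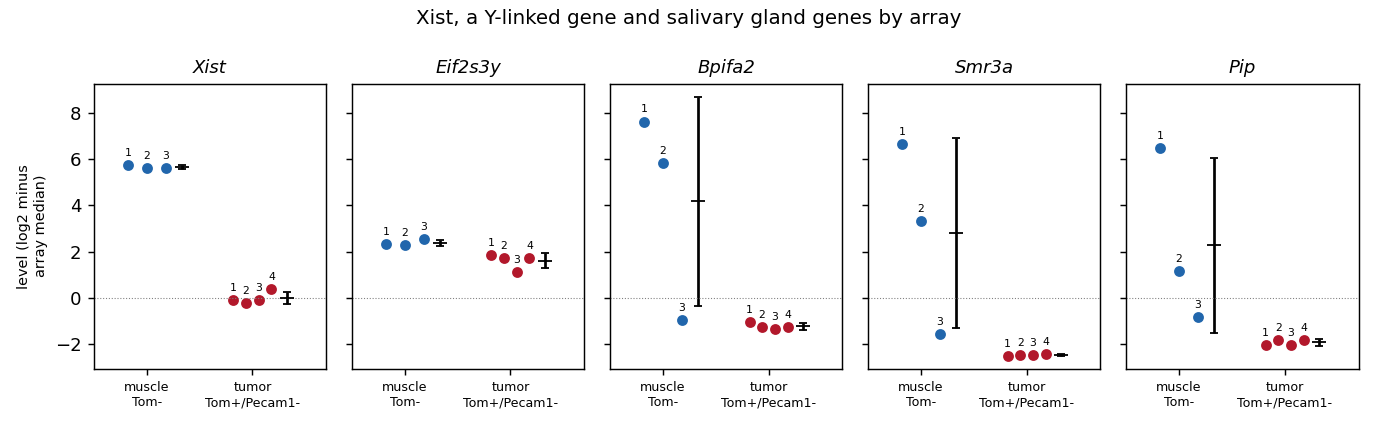
Levels (log2 intensity minus array median, y axis) of Xist, the Y-linked Eif2s3y and 3 salivary gland genes in the 3 muscle Tom- and 4 tumor Tom+/Pecam1- arrays. Numbered points are arrays, bars the mean ± SD. Xist splits the groups with no overlap, as 6952 of the 7545 called genes did. Bpifa2, Smr3a and Pip are high in muscle repeat 1 and fall to tumor levels or near them in repeat 3.

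The hedgehog pathway was higher in the tumor cells at its transducer, its activators and its main targets. Smo stood at 3.94, 3.73, 3.70 and 3.79 in the tumor cells and 2.5, 2.78 and 2.29 in muscle (1.26 ± 0.14, 2.4-fold, adjusted p = 2.09e-06). The sources used here do not give whether the Smo probe set also detects SmoM2 RNA. Gli1, the pathway's amplifying transcription factor and target, stood at 4.11, 3.67, 3.11 and 4.31 against 0.96, 0.77 and 1.10, a difference of 2.86 ± 0.27 (7.25-fold, adjusted p = 2.86e-07). Ptch1 stood at 6.0, 5.63, 5.68 and 6.22 against 2.77, 3.02 and 2.96, a difference of 2.96 ± 0.29 (7.81-fold, adjusted p = 3.96e-07). Neither gene overlapped between the groups, as was so for 6952 of the 7545 called genes. Tumor repeat 4 was the highest of the 4 tumor arrays in Gli1, Ptch1 and Hhip. Since the repeat means of the tumor arrays were equal as deposited, this rank is relative to the other populations of that repeat. The Pecam1-negative unmarked cells of the same tumors lay between the groups, with means of 2.80 for Smo, 1.80 for Gli1, 3.96 for Ptch1 and 2.43 for Hhip.

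Of 19 measured ligands, receptors and transducers 12 were higher and 2 lower (median 0.49, against 0.01 over all genes tested). Gli2, the main activator, was higher by 1.55 ± 0.15, Kif7, the ciliary kinesin that handles Gli proteins, by 1.07 ± 0.11, and Hhat, which attaches palmitate to the ligands, by 0.79 ± 0.13. The ligand gene Dhh was lower (-1.14 ± 0.14), with tumor levels of -0.21 to 0.13 against 0.97 to 1.26. Disp1, which releases ligand from producing cells, was also lower (-0.73 ± 0.16). The ligand Ihh was at 0.21 to 0.44 in all arrays of both groups and did not pass (-0.01, adjusted p = 0.905), and Shh was too dim to be tested. Without centring Ihh was called at 0.32 (adjusted p = 0.00556), close to the 0.34 by which that setting moved the median gene. The inhibitor Sufu, which binds Gli proteins, stood at 1.83 to 1.94 in every array (0.03 ± 0.11, adjusted p = 0.848). Relative to the bulk of genes no tested ligand gene was thus called higher in the tumor cells. The surface proteins Boc (1.06), Gas1 (0.44) and Gpc3 (1.29) were called here. With muscle repeats 1 and 2 left out, which leaves 1 muscle array, they stood at 1.01, 0.39 and 1.04 and were not called (adjusted p = 0.0576, 0.23 and 0.164).

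Of 19 known or proposed hedgehog targets 10 were higher and 3 lower (median 0.73). The forkhead gene Foxf2 stood at 1.53, 1.91, 1.66 and 1.6 against -1.14, -1.22 and -1.08 (2.82 ± 0.17, adjusted p = 1.41e-09). Its relative Foxf1 (2.37 ± 0.27) and Fendrr (2.31 ± 0.13), a long noncoding RNA transcribed beside Foxf1, were also higher, as were Foxd1 (2.02 ± 0.22) and the growth factor Igf2 (2.61 ± 0.28). Igf2 reached 4.81 to 5.58 in the tumor cells against 2.54 to 2.90 in muscle. The 3 lower targets were the cyclin gene Ccnd2 (-1.46 ± 0.16), Osr1 (-1.35 ± 0.32) and the ligand gene Bmp4 (-0.56 ± 0.17). Osr1 was lowest in tumor repeat 4 (0.76, against 2.15 to 2.21 in the others). Bmp4 lost its call without centring, and both Osr1 and Bmp4 lost it with muscle repeats 1 and 2 left out. Of Ccnd1 and Mycn, cell cycle targets in other hedgehog tumors, neither passed (-0.48, adjusted p = 0.103, and -0.37, adjusted p = 0.089), although some other settings called each of them lower.

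**Figure D2:**
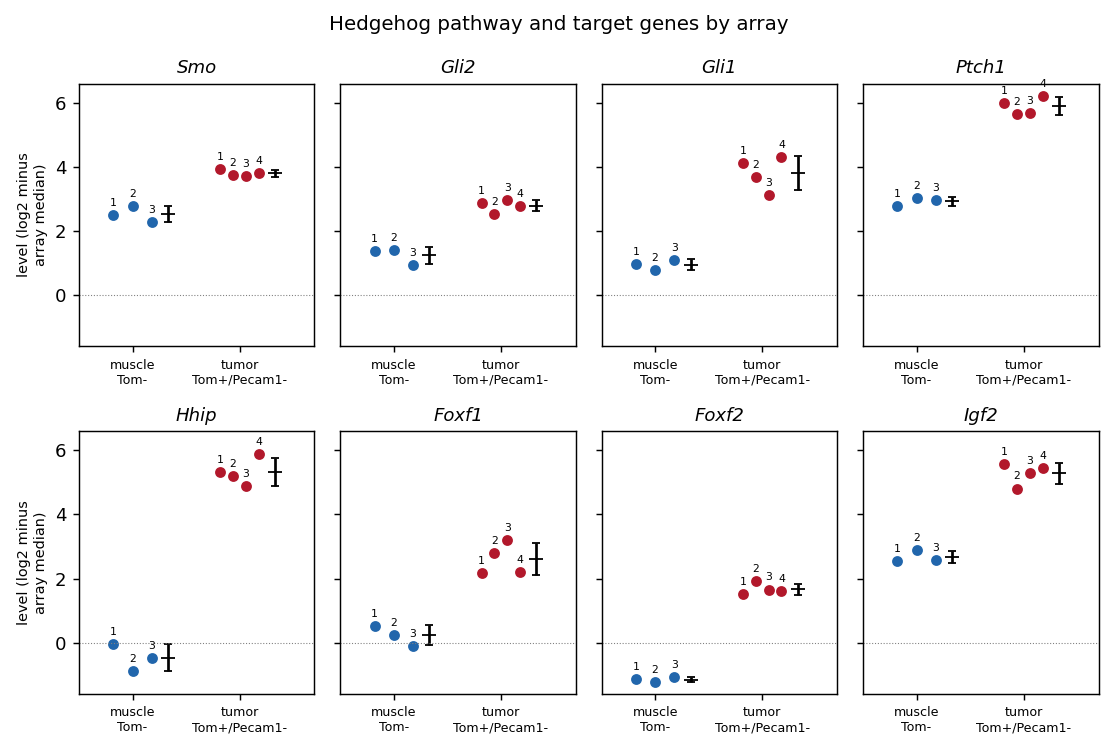
Levels (log2 intensity minus array median, y axis) of 8 hedgehog pathway and target genes in the 3 muscle Tom- and 4 tumor Tom+/Pecam1- arrays. Numbered points are arrays, bars the mean ± SD. In each gene all 4 tumor arrays lie above all 3 muscle arrays, by 1.26 for Smo and 5.79 for Hhip on average. The groups did not overlap in 6952 of the 7545 called genes.

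The primary cilium, the organelle through which Smo signals, gave small differences. Of 22 genes 13 were called higher and 0 lower (median 0.36), led by the transport motor Dync2h1 (0.72 ± 0.14), Ift57 (0.58), Bbs4 (0.57) and Tmem67 (0.59). In the list 6 were called with centring on the tested genes (with 1 lower), 6 with the replicate number added to the fit as a block, and 1 with muscle repeats 1 and 2 left out. The hedgehog components gave 12 higher and 2 lower with quantile normalization or centring on the tested genes and 11 and 2 with that block.

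Genes of the BMP and Wnt pathways, which pattern mesenchyme and muscle, also differed. In the BMP list 11 of 16 were higher and 2 lower (median 1.13). Smad6, which BMP signaling induces and which inhibits it, stood at 3.03, 3.04, 2.83 and 2.88 against -0.28, -0.75 and -0.24 (3.37 ± 0.15, adjusted p = 7.24e-11), and the related inhibitor Smad7 was higher by 1.82 ± 0.12. The secreted antagonists Nog (2.70 ± 0.23) and Sostdc1 (3.37 ± 0.41) were also higher. Chrdl2, a secreted antagonist kept in the list of myogenic progenitors, was lower (-3.27 ± 0.19), so inhibitors of the pathway differed in both directions. The ligand genes Bmp2 (-1.07 ± 0.39) and Bmp4 were lower, but both lost the call without centring and Bmp2 also without any 1 of several arrays. In the list of Wnt antagonists and targets 9 of 14 were higher and 1 lower (median 0.87). Wif1 stood at 4.72, 4.16, 4.46 and 3.72 against -0.09, -0.02 and -0.18 (4.36 ± 0.34, 20.5-fold). The receptor and target Lgr5 (1.81 ± 0.16), the feedback inhibitor Nkd2 (1.23 ± 0.12) and the Wnt deacylase Notum (1.15 ± 0.12) were higher, while the antagonist Sfrp5 was lower (-2.33 ± 0.14). Of 15 Notch genes 1 was higher, 7 lower and 7 not called (median -0.14), and without centring 4 were higher and 6 lower (median 0.20). The ligand genes Dll1 (-1.45 ± 0.17) and Dll4 (-1.14 ± 0.16), the target Hey2 (-1.30 ± 0.17) and the feedback regulator Nrarp (-0.96 ± 0.14) were lower, and the target Hey1 was higher (1.19 ± 0.19).

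Of the core regulators of muscle identity, Pax7, Myf5 and Myod1 did not pass, Myog was lower and Myf6 higher. Pax7, which marks muscle stem cells, stood at 3.70, 3.56, 3.32 and 3.81 in the tumor cells and 3.47, 3.54 and 2.75 in muscle (0.35 ± 0.35, 95% interval -0.40 to 1.09, adjusted p = 0.445), with 0.10 without muscle repeat 3 and 0.85 with muscle repeats 1 and 2 left out. Myf5 stood at 3.27 to 4.24 against 3.69 to 4.05 (-0.05 ± 0.34, interval -0.77 to 0.68, adjusted p = 0.923). Myod1 stood at 2.82, 2.45, 2.62 and 2.32 against 2.13, 2.66 and 2.57 (0.10 ± 0.25, interval -0.42 to 0.62, adjusted p = 0.768). The groups overlapped in all 3 genes, both held them well above the array median, and the intervals (from limma's fit) still allow differences of either sign. The unmarked Pecam1-negative tumor cells had lower means, at 1.94 for Pax7, 1.32 for Myod1 and 2.16 for Myog. Myog, the differentiation factor, was lower in the tumor cells, at 4.04, 3.62, 3.36 and 3.68 against 3.98, 5.12 and 4.87 (-0.98 ± 0.31, adjusted p = 0.0169). Its call rested on muscle repeats 2 and 3, since it was lost without either, without centring and with muscle repeats 1 and 2 left out. Myf6, the last factor of the family, was higher by 1.81 ± 0.14, at 1.04 to 1.53 against -0.66 to -0.32.

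Among 20 genes of myogenic progenitors 3 were higher and 5 lower (median -0.04), and without centring 6 were higher and 4 lower (median 0.30). Calcr, the calcitonin receptor of quiescent muscle stem cells, stood at -0.70, -1.23, -0.77 and -0.96 in the tumor cells against 2.61, 2.68 and 2.62 (-3.55 ± 0.13, adjusted p = 1.06e-11). All tumor arrays thus had Calcr below the array median and all muscle arrays above it. Chrdl2, at 0.11 to 0.76 against 3.35 to 3.90, the head muscle factor Msc (-1.66 ± 0.12) and the dystroglycan gene Dag1 (-1.55 ± 0.14) were also lower. Sdc3, a syndecan of muscle stem cells, was higher (1.55 ± 0.19), as were Cdh15 (0.69) and Vcam1 (0.47), which each lost the call without any of several single arrays. Of 18 genes of myoblast differentiation 3 were higher and 4 lower (median 0.05), and without centring 8 were higher and 2 lower (median 0.38). The share called in the progenitor list and in the differentiation list was below the 47.1% over all genes tested. Smyd1, a methyltransferase of sarcomere assembly, was higher by 2.18 ± 0.26 and the fetal acetylcholine receptor subunit Chrng by 0.71 ± 0.19. Mrln, the micropeptide that inhibits the muscle calcium pump, was lower (-1.74 ± 0.40), as were Mef2d (-0.61 ± 0.10) and Mef2c (-0.51 ± 0.15).

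Developmental and adult fast isoforms of the contractile genes were counted separately. Of 7 developmental isoforms 6 were higher and 0 lower (median 1.93). Myh3, the embryonic myosin heavy chain, stood at 3.42, 2.56, 2.72 and 3.12 in the tumor cells against -0.89, -0.70 and -0.78 (3.74 ± 0.29, 13.4-fold, adjusted p = 2.69e-08). Myh8, the perinatal one, stood at 5.37, 4.72, 4.38 and 4.84 against 1.38, 1.31 and 2.31 (3.16 ± 0.35, 8.96-fold). The atrial and embryonic light chain Myl4 (1.93 ± 0.21) and the cardiac and embryonic troponin Tnnt2 (1.93 ± 0.34) were higher too. Of 13 adult fast isoforms 1 was higher, 5 lower and 7 not called (median -0.50), and without centring 3 were higher and 3 lower (median -0.17). The share of adult fast isoforms called was thus near the 47.1% over all genes tested. Myh4, the myosin of the fastest fibers, stood at -1.25, -1.53, -1.34 and -1.30 in the tumor cells against 4.44, -0.01 and 3.50 (-4.0 ± 0.64, adjusted p = 8.45e-05), and Pvalb at -0.58 to -0.31 against 5.55, 1.14 and 4.72 (-4.23 ± 0.63). Muscle repeat 2 was the lowest muscle array in both, as in Myoz1 (-1.09 ± 0.31, lost without muscle repeat 1) and the fast calcium pump gene Atp2a1 (-0.58 ± 0.20, lost without muscle repeat 1 or 3 and without centring), while Myh1, another fast myosin, was higher in the tumor cells (1.45 ± 0.22). Myh4 and Pvalb kept their calls whichever single array was left out, with adjusted p up to 0.000999 and 0.000497. With muscle repeat 3 as the only unmarked muscle array, 4 developmental isoforms were higher and 0 lower, and 1 adult fast isoform was higher and 6 lower.

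Of 38 sarcomere genes 16 were higher and 7 lower (median 0.36). The higher ones included the slow-fiber genes Tnnc1, at 4.38 to 5.44 against 0.49 to 1.44 (3.86 ± 0.32), and Tnni1 (2.57 ± 0.19), and Myom2, an M-band protein (1.88 ± 0.18). The lower ones included the slow light chain Myl2 (-0.92 ± 0.10), Tpm1 (-0.88 ± 0.11), Mybpc1 (-1.22 ± 0.19) and Myom1 (-1.49 ± 0.24). Calcium handling genes were split, 5 higher and 6 lower of 16 (5 and 5 without centring). Sln, the sarcolipin that restrains the calcium pump, was higher (2.88 ± 0.26), with the calcium channel subunits Cacnb1 (1.20), Cacng1 (1.70) and Cacna1s (0.70). Casq2, the calcium store protein of slow fibers and heart, was lower (-2.14 ± 0.38), with the pump gene Atp2a2 (-0.68), Jsrp1 (-0.72) and Pvalb.

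**Figure D3:**
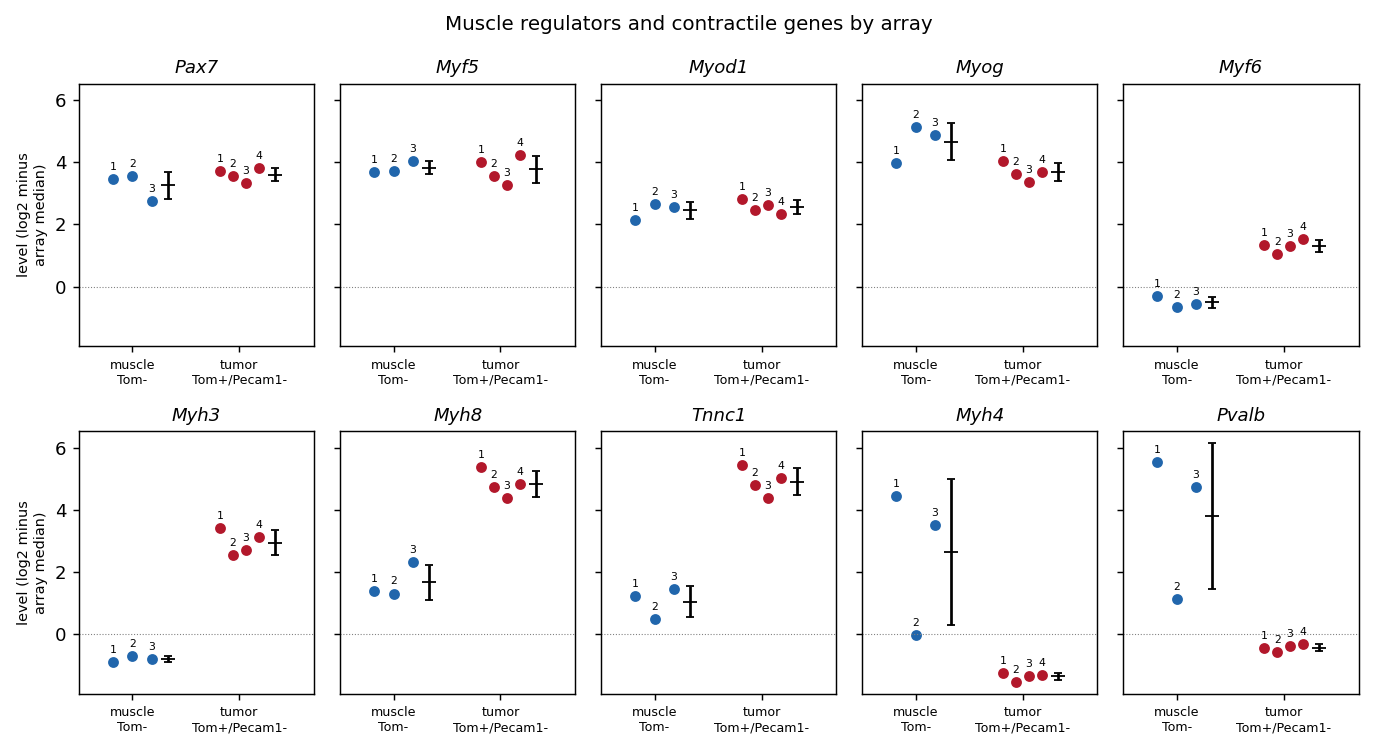
Levels (log2 intensity minus array median, y axis) of 5 muscle regulators and 5 contractile genes in the 3 muscle Tom- and 4 tumor Tom+/Pecam1- arrays. Numbered points are arrays, bars the mean ± SD. Pax7, Myf5 and Myod1 overlap between the groups, Myh3, Myh8 and Tnnc1 are higher in all tumor arrays, and Myh4 and Pvalb are lower in them with muscle repeat 2 far below muscle repeats 1 and 3.

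The embryonic, fast adult and perinatal myosin genes Myh3, Myh4 and Myh8 lie in 1 cluster on mouse chromosome 11. Myh4 differed in the opposite direction to Myh3 and Myh8, so the 250 bases before each start are shown (RefSeq, GRCm38.p6, plus strand). Myh1, another fast adult myosin, was higher in the tumor cells and its window is not shown, so the windows do not compare the isoform classes. Capitals mark CAGCTG, an E-box bound by Myod1-family factors, and the letters TATAAA, as in a TATA box, or their reverse complement, wherever they occur. The windows cover chr11:67078050-67078299 for Myh3, chr11:67237562-67237811 for Myh4 and chr11:67276874-67277123 for Myh8.
Myh3: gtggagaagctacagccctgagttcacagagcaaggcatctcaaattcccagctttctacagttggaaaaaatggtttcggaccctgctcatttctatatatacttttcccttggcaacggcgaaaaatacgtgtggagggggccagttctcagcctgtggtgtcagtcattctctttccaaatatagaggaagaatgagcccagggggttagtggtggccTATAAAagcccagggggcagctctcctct
Myh4: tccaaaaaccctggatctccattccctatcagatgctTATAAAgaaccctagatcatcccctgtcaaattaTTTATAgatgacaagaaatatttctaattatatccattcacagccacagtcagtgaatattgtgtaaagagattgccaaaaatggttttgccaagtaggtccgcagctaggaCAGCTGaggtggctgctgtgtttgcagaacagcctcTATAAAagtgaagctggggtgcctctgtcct
Myh8: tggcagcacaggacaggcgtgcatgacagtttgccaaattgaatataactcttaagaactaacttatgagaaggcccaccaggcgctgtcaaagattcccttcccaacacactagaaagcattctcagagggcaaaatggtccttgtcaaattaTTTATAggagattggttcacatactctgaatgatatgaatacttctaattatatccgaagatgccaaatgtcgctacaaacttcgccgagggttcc
Myh4, the gene that was lower, holds CAGCTG once, 67 bases before its start, and Myh3 and Myh8 hold it 0 times. TATAAA begins 29 bases before the start of Myh3 and 31 before that of Myh4. Myh4 also holds it 213 bases before its start, and on the minus strand 179 bases before. Myh8 has only a match on the minus strand 96 bases before its start. CAGCTG occurs in 13% and TATAAA in 12.4% of the 32851 promoters of the table over this length. The Gli consensus GACCACCCA, on either strand, occurs in 0.253% of promoters over 300 bases and in 0 of the 13 promoters listed for 10 hedgehog targets. Gli1 has no promoter listed and was not searched. A motif this rare would mostly be absent from 13 promoters of any genes, so the 0 says nothing of these targets. These matches describe the letters of the windows only.

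Transcription factors of head and pharyngeal mesoderm, from which jaw and some neck muscles arise, all differed: of 13 genes 9 were higher and 4 lower (median 0.76). Tcf21 stood at 3.62, 3.81, 3.48 and 4.39 in the tumor cells against 0.21, -0.45 and 0.50 (3.74 ± 0.31, adjusted p = 6.43e-08). Tbx1 stood at 3.00, 2.69, 2.81 and 3.21 against 0.35, -0.22 and -0.15 (2.93 ± 0.24), and Tbx3 (1.6 ± 0.16) and Six4 (1.43 ± 0.15) were higher. Msc, which acts with Tcf21 in jaw muscle formation, went the other way, as did Eya1 (-1.51 ± 0.16), Six2 (-0.56) and Lhx2 (-0.53), of which Six2 and Lhx2 lost the call without centring. Hox genes, which set position along the body axis, averaged below the array median in every array (-0.90 to -0.84 in tumor and -0.60 to -0.57 in muscle). Of 20 tested, 5 were higher and 11 lower (median -0.34), and without centring 6 were higher and 7 lower (median -0.01). Anterior genes were among the lower ones, with Hoxa2 at 0.09 to 0.58 against 2.02 to 2.18 (-1.76 ± 0.12), Hoxa3 (-1.25), Hoxa5 (-1.22) and Hoxd1 (-0.78). Hoxc9 (0.99), Hoxd12 (0.74), Hoxc12 (0.52) and Hoxd10 (0.45) were higher. Of 20 reference genes of rhabdomyosarcoma 10 were higher and 2 lower (median 0.62). Besides Myh3, Myh8 and Igf2 these included Fbn2, the fetal fibrillin, at 2.79 to 3.55 against -0.09 to 0.16 (3.23 ± 0.21). Nos1 (-0.62 ± 0.10) and Myog were the lower ones.

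The lists of mesenchymal cells, fibroblasts and tendon cells differed in direction. Of 13 factors of mesenchymal transition 8 were higher and 0 lower (median 1.15). Cdh11, a cadherin of mesenchymal cells, stood at 5.97, 5.79, 5.78 and 5.61 against 2.32, 2.74 and 2.46 (3.28 ± 0.18, adjusted p = 6.36e-10), and N-cadherin (Cdh2, 2.25 ± 0.20), the repressor Snai1 (2.20 ± 0.23) and the growth factor Tgfb1 (1.88 ± 0.17) were higher. Of 24 fibroblast and fibro-adipogenic genes 4 were higher, 9 lower and 11 not called (median -0.19), and without centring 8 were higher and 7 lower (median 0.14). Dpp4 stood at -1.77, -1.88, -1.81 and -0.87 against 3.03, 2.12 and 2.85, and Smoc2 (-2.69 ± 0.18), Clec3b (-2.31 ± 0.19) and Cd34 (-2.28 ± 0.21) were lower. Islr, a secreted protein of mesenchymal stromal cells, was higher (1.84 ± 0.15), as were Fbln1 (0.61), Tcf7l2 (0.25) and Serpinf1 (0.18). Of 8 tendon cell genes measured, Tnmd (-2.93 ± 0.25), Kera, Mkx (-1.04 ± 0.25) and Chad (-1.10 ± 0.38) were lower and Comp was higher (1.28 ± 0.37). Comp overlapped between the groups and lost its call without muscle repeat 1, and Chad without muscle repeat 2 or 3. Of 11 fibrillar collagen genes only Col1a1 (-0.74 ± 0.16) and Col11a2 (-0.35 ± 0.10) passed, both lower, and without centring 3 were higher and 1 lower. Basement membrane genes mostly did not pass, with Agrn higher (0.88 ± 0.12) and Lamc1 (-0.97 ± 0.18), Lamb2 (-0.41) and Lama4 (-0.55) lower of 15, while without centring 5 were higher and 1 lower.

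Genes of other cell types differed as well, in some lists no more often than the 47.1% over all genes tested. Since whole sorted populations were measured, fewer cells of a type and less RNA per cell cannot be told apart. Of 20 blood endothelial genes 2 were higher and 15 lower (median -0.80), and only the tumor cells were sorted against Pecam1. Pecam1 stood at 1.58, 1.64, 2.02 and 1.52 against 3.29, 3.00 and 2.77 (-1.33 ± 0.18, 0.397-fold), far below its mean of 6.45 in the Pecam1-positive tumor cells. Tek (-2.18 ± 0.23), Esam (-1.55 ± 0.13) and Cldn5 (-1.48 ± 0.18) were lower, while the TGF-beta coreceptor Eng (1.49 ± 0.13) and the factor Sox18 (1.56 ± 0.18) were higher. Of 6 lymphatic genes 4 were lower, Mmrn1 (-1.62), Reln (-1.03), Flt4 (-0.75) and Lyve1 (-0.78), and Pdpn was higher (0.62). Without centring 2 lymphatic genes were lower and 1 higher. With muscle repeats 1 and 2 left out, the 5 differences were -1.41, -0.86, -0.58, -0.59 and 0.60 in the same order. Of 13 pericyte and smooth muscle genes 0 were higher and 9 lower (median -0.93), with Myh11 at 3.84 to 4.91 against 6.41 to 6.60 (-2.19 ± 0.30), Cnn1 (-1.98 ± 0.35), Lmod1 (-1.71 ± 0.16) and Tagln (-0.93 ± 0.15). Fabp4, whose promoter drives the Cre of the reporter, stood at 3.88, 4.02, 3.76 and 3.74 against 5.71, 5.57 and 6.06 (-1.93 ± 0.29, 0.263-fold). The reporter-marked tumor cells thus had less Fabp4 RNA than the unmarked muscle cells. Other adipocyte genes were split, 2 higher and 4 lower of 13, with the fatty acid transporter Cd36 lower (-2.42 ± 0.15), and Slc2a4 (-0.51) and Pnpla2 (-0.29) lower and Cidec (1.23) and Cebpa (0.98) higher. The share of adipocyte genes called was thus near the 47.1% over all genes tested. Without centring 4 adipocyte genes were higher and 2 lower.

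Leukocyte genes differed by lineage. Of 20 macrophage and monocyte genes 12 were higher and 0 lower (median 0.92), with the endotoxin coreceptor Cd14 at 2.01 to 2.55 against -0.89 to 0.02 (2.58 ± 0.28), Ms4a7 (2.56 ± 0.32), Cx3cr1 (1.35 ± 0.24) and Fcer1g (1.15 ± 0.19). The pan-leukocyte list showed no such shift, with Lcp1 (0.55 ± 0.21) the only member of 10 that passed, a call lost with quantile normalization. All 6 mast cell genes were lower, among them Mcpt4 at -3.12 to -2.31 against 1.28 to 1.83 (-4.23 ± 0.29), Cpa3 (-3.07 ± 0.28), Hdc (-2.10 ± 0.28) and Tpsb2 (-1.36 ± 0.19). Of 7 neutrophil genes 5 were lower, S100a8 (-3.49 ± 0.29), S100a9 (-2.18 ± 0.30), Cxcr2 (-1.37), Retnlg (-1.94) and Stfa2l1 (-1.49). The calls of Retnlg and Stfa2l1 were lost without muscle repeat 3. Of 9 lymphocyte genes 7 were lower, among them Cd79b (-2.27), Cd3d (-1.51), Ms4a1 (-1.41) and Cd79a (-1.18). Without centring 3 of the 9 were called lower, and with muscle repeats 1 and 2 left out 1. Cd3d was highest in muscle repeat 2 (1.74, against 0.57 and 0.60) and lost its call without it. The level of the lymphocyte list, averaged over its members, was -1.32 to -0.28 in the tumor arrays and -0.05 to 0.91 in the muscle arrays. Both erythroid genes measured, Slc4a1 (-1.66 ± 0.23) and Klf1 (-0.50), were lower. Of 9 Schwann and glial genes 6 were lower, led by Cdh19 (-3.55 ± 0.30), Mbp (-2.99 ± 0.18), Foxd3 (-1.21) and Sox10 (-1.06), and Ngfr (1.68 ± 0.21) and S100b (1.73 ± 0.28) were higher. Genes of antigen presentation included 3 higher of 11, H2-Eb1 (1.71), H2-Aa (1.41) and H2-Ab1 (0.88), of which none was called with muscle repeats 1 and 2 left out. Over all genes tested 24.1% were higher, so the count of antigen presentation genes does not stand out. Interferon genes were split, with Ifit1 (1.21), Irf7 (0.67), Mx1 (0.92) and Ifit3 (0.41) higher and Rsad2 (-1.37) and Irf1 (-0.94) lower of 9.

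None of the mitosis and S phase genes listed was called higher in the tumor cells with the centred values. Of 19 genes of mitosis 0 were higher and 8 lower (median -0.62), and of 15 genes of S phase 0 were higher and 7 lower (median -0.39). Mki67, a marker of cycling cells, stood at 2.90, 3.13, 3.17 and 2.55 in the tumor cells against 4.0, 4.28 and 4.38 (-1.28 ± 0.29, adjusted p = 0.00165). Cenpf (-1.11 ± 0.23), Ccnb2 (-0.62), Ube2c (-0.86), Cdc6 (-1.26 ± 0.14), E2f1 (-0.84 ± 0.10), Ccne1 (-0.86) and Mcm2 (-0.68) were lower too. The muscle was 21 days old and the tumors 38 and 48, and the part of age in these values was not tested. Without centring 1 mitosis gene was higher and 2 lower (median -0.29), and 3 S phase genes were higher and 3 lower (median -0.06), with Mki67 still lower. Among genes of G1 the inhibitors Cdkn2b (1.53 ± 0.13) and Cdkn2a (1.00 ± 0.13) were higher, and Cdk6 (-1.74 ± 0.19), Ccnd2, Myc (-1.14 ± 0.18) and Rb1 (-0.57) were lower of 16, while without centring 5 were higher and 3 lower. The probe sets of Rb1 disagreed, with a difference of 0.21 (adjusted p = 0.367) for their mean. Of 11 imprinted growth genes Igf2 was the 1 higher one, and 5 were lower, including Rian (-1.33 ± 0.24), Grb10 (-0.81), Meg3 (-0.76) and the clearance receptor Igf2r (-0.49), while without centring 3 were higher and 2 lower.

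Metabolic and housekeeping lists gave small shifts that changed with the scaling. Of 20 respiratory chain genes 2 were higher and 12 lower (median -0.36), but 5 were higher and 3 lower without centring. The muscle cytochrome oxidase subunit Cox7a1 (-1.75 ± 0.30), Uqcrfs1 (-0.92 ± 0.13) and Cox4i1 (-0.60 ± 0.10) kept their call in that setting, and Ndufs1 (-0.46), the fourth by adjusted p, did not. Sdhc (0.64) and Ndufv1 (0.26) were the higher ones. Of 16 glycolysis genes 3 were higher and 7 lower (median -0.36), with the neuronal enolase Eno2 (1.25 ± 0.13), Hk2 (0.88) and Pgam1 (0.39) higher and Pgk1 (-0.98 ± 0.14), Pfkp (-0.76), Pkm (-0.43) and Ldhb (-0.59) lower, and without centring 5 were higher and 2 lower. Ribosomal protein genes were lower in 6 of 13 cases (-0.59 to -0.19), among them Rpl11, Rpl32, Rps6 and Rpl4, and without centring 0 were lower and 1 higher. Genes induced by tissue dissociation mostly did not pass, with Dusp1 (0.61) higher and Hspa8 (-0.25), Btg2 (-0.58) and Dnajb1 (-0.55) lower of 17, while without centring 5 were higher and 0 lower.

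**Figure D4:**
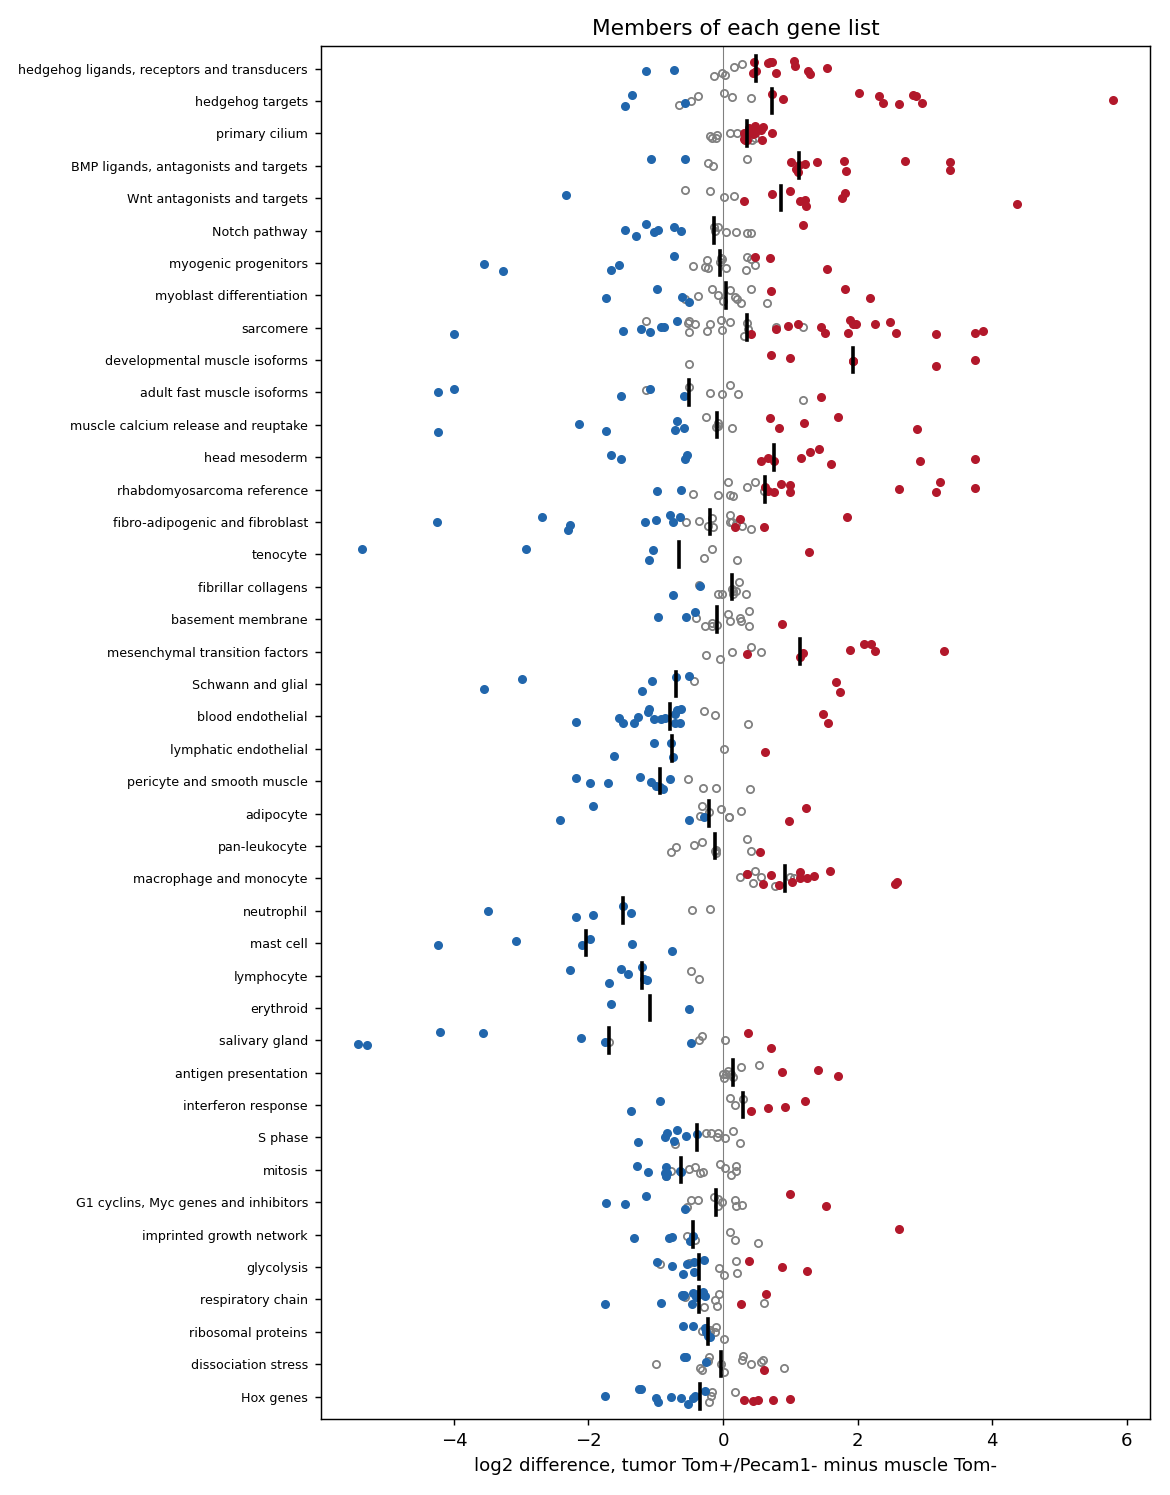
Log2 difference of each tested member (x axis, tumor Tom+/Pecam1- minus muscle Tom-) of the gene lists described in the text. Filled red points passed an adjusted p of 0.05 as higher, filled blue points as lower, open points did not pass, and black bars mark list medians. Developmental muscle isoforms (1.93), mesenchymal transition factors (1.15) and BMP genes (1.13) have the highest medians, and mast cell genes (-2.04) the lowest.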

How the data were processed

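RNA of sorted cells was turned into cDNA with a NuGEN Ovation Pico kit and labelled with biotin, per the labels. The deposited values are log2 intensities on 18 arrays. The submitters' processing notes name RMA and Partek without versions. The array model and genome build are not given in the sources used here. The number of arrays limits the precision.

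From these values, probe sets with 1 gene symbol were kept (23521 of 41345), the brightest per gene was used (22180 genes), each array was centred on its median, and genes above the array's own 40th percentile on at least 3 of the 18 arrays were tested (16011). limma 3.58.1 in R 4.3.3 fitted a mean for each of the 5 sorted populations of the series (13 residual and 3.9 prior degrees of freedom, no block), with Benjamini-Hochberg adjustment. The fit was also run on simulated data with independent noise, which lack the equal repeat means of the deposited tumor values. That run therefore cannot show whether p-values are too small here. The labels call the arrays biological repeats, without saying whether each came from a separate animal or a pool. The p-values measure the spread between these arrays, which may be partly technical. Python 3.11.15, pandas 2.3.3 and matplotlib 3.10.9 were used for counts and figures, and sequences came from RefSeq (GRCm38.p6).

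Genes and lists were chosen with earlier results of these data known. Named were 9 key genes, the 12 largest and 12 smallest differences among called genes without overlap between the groups (without gene models, clone names and small RNAs), up to 4 members per list and direction by adjusted p, and every called member of a list with 5 or fewer. Ihh, Shh, Sufu, Boc, Gas1, Gpc3, Ccnd1, Mycn, Myf5, Eif2s3y, Uty, Kdm5d and the genes of the closing observations were chosen after their values were seen.

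The labels tie no tumor array to a muscle array. Whether repeat numbers pair them could not be checked from the values, since the repeat means of the tumor arrays were equal as deposited (deviations of same-numbered arrays correlated at r = -0.00, 0.05 and 0.04 over genes). Alternatives were other filters, scalings, variances, weights, thresholds, blocks and omitted arrays.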

Additional observations from a re-analysis of the deposited data

Results flagged for a closer look

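For 13 of the 252 genes named (5.16%), 1 of the 4 tumor arrays lay far from the other 3 relative to their range, a rule that chance meets in about 1 of 20 groups. In 8 of them it was repeat 4, from the tumors taken at day 38. Repeat 4 was low in Osr1 (0.76, others 2.15 to 2.21), Fbln1 (2.46, others 3.05 to 3.09), Rb1 (3.54, others 3.86 to 3.88), Ift57 (3.47, others 3.59 to 3.60) and Sufu (1.83, others 1.93 to 1.94). It was high in Dpp4 (-0.87, others -1.88 to -1.77), Cd3d (0.10, others -0.80 to -0.71) and Tgfb1 (3.92, others 3.47 to 3.52). Repeat 2 was high in Chrdl2 (0.76, others 0.11 to 0.18), Lcp1 (3.34, others 2.70 to 2.80) and Rps6 (6.84, others 6.73 to 6.74). Repeat 1 was high in Smyd1 (1.61, others 1.26 to 1.28) and low in Pfkp (2.32, others 2.54 to 2.58). The repeat means of the tumor arrays were equal as deposited, so a level shared by all populations of repeat 4 is absent from these values. The part of age in the values of repeat 4 was not tested, and 1 array here has that age.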

How the results depend on the processing

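No gene called here was called in the opposite direction under any setting (0 turned). The total of 7545 calls (3866 higher, 3679 lower) became 8196 higher and 1541 lower without centring, 5748 lower without a filter, 2413 lower with a 60th percentile filter, 4960 (2339 higher) with muscle repeats 1 and 2 left out, and 1678 (891 higher, 787 lower) with a difference of at least 2-fold. Leaving out 1 array gave 6588 to 6982 calls, 3287 to 3594 higher and 3098 to 3388 lower. With the replicate block 6337 genes were called when it was fixed (3241 higher, 3096 lower) and 7029 when it was random, and the values cannot show whether repeat numbers pair the arrays. Fewer arrays lower the counts by themselves.

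Of the 252 genes named, 244 were called, and 174 of these kept their call and direction in all of the 19 settings in which they were tested. With the sign kept, calls were lost by 31 genes without centring, 52 with muscle repeats 1 and 2 left out, 13 with the fixed block and 7 to 20 with 1 array left out. Signs turned, in each case without a call unless given, for Pnpla2 (0.04), Rpl4 (0.09), Rps6 (0.06), Hspa8 (0.09), Myf5 (0.29) and Ihh (0.32, called) without centring, and for Rb1 with the mean of its probe sets (0.21). With 1 array left out, Myod1 ranged from -0.06 (without muscle repeat 1) to 0.20, Ihh from -0.07 to 0.05 (without muscle repeat 2), and Myf5 from -0.20 to 0.12 (without tumor repeat 3), with 0.02 without tumor repeat 2 and 0.07 without muscle repeat 3. With muscle repeats 1 and 2 left out, Myod1 stood at -0.01 and Ihh at 0.09. Sufu stood at -0.04 with quantile normalization and at -0.06 with centring on the tested genes, and was called without centring (0.36). Ccnd1 and Mycn were called lower in 2 and 3 settings, and Bglap higher without centring (0.52). Signal near the lower end of an array limits the size of differences that start there.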

Other observations

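Some genes known from bone and cartilage cells were picked after their values were seen, so they say nothing of such genes as a group. Sp7, the osterix transcription factor of osteoblasts, stood at 2.57, 3.20, 2.38 and 1.76 against -1.11, -1.18 and -1.02 (3.58 ± 0.30, limma adjusted p = 6.44e-08). Alpl, the alkaline phosphatase of mineralising tissue, stood at 5.35, 4.42, 4.76 and 5.36 against 2.18, 1.64 and 2.14 (2.99 ± 0.34). The bone sialoprotein Ibsp spread widely among the tumor arrays, at 1.66, 1.24, 2.98 and 0.63 against -2.05 to -1.80 (3.56 ± 0.82), and its call was lost with muscle repeats 1 and 2 left out. Col10a1, the collagen of hypertrophic cartilage (1.51 ± 0.12), Dmp1 (1.02 ± 0.34), Postn (0.84 ± 0.26) and the parathyroid hormone receptor Pth1r (0.49 ± 0.13) were higher too. Bglap, osteocalcin, stood at -0.69 to -0.03 against -0.72 to -0.43 and did not pass (0.19 ± 0.15, adjusted p = 0.328), but was called higher without centring (0.52).

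Other genes with large differences, also chosen after their values were seen, were the heart and motor neuron factor Tbx20 at 1.61 to 1.88 against -1.77 to -1.54 (3.37 ± 0.17), the BMP family ligand Gdf10 at 4.28 to 4.84 against 0.87 to 1.01 (3.58 ± 0.19) and the leptin receptor Lepr at 3.34 to 4.11 against -0.36 to 0.55 (3.62 ± 0.24). The phosphodiesterase Enpp6 (3.40 ± 0.29), the endocytic receptor Ly75 (3.55 ± 0.27) and the protocadherin Pcdhb2 (3.65 ± 0.24) were of like size.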
